A study of Mus musculus with 4 samples.

Results

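The genes described here are 8 transcription factor genes of the eye field and the early forebrain: Rax, Otx2, Lhx2, Vax1, Vax2, Hesx1, Emx2 and Mitf. They were listed by name for their known roles, with no threshold on a measured value, and are 8 of the 21631 genes that code for protein on the autosomes and X. Their loci, each gene with 50 kb on either side, held 714 of the 1578514 called regions. The study mapped Six3 binding by CUT&RUN, in which an antibody tethers a nuclease that releases the DNA around a bound protein. Mouse primary neural stem cells, labelled WT and made to overexpress Six3, had spent 3 h in neural differentiation medium. Of the 4 libraries, 3 carried the label Six3_flag and 1 the label IgG, the control antibody. The labels do not say whether the libraries came from separate cultures.

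The deposited table lists called regions with 2 signals each and no column for a single library. The sources used here do not say which libraries went into it or whether IgG served as a control for the calls. FLAG and IgG could therefore not be set against each other at these genes, sequencing depth is not known, and the values carry neither a replicate error nor a test. Values are described and ranked against genes of similar length: a percentile is the share of 2163 protein-coding genes in the same of 10 equally filled classes of gene length that had a lower value, with ties counted as 0.5. Heights at these loci fell on whole multiples of 1.9 or of 0.48 (the 1.9-step and 0.48-step sets), and signals of the sets need not be on one scale. Height here means the highest signal in a region, and a tall region is one with a height of 7.6 or more. At these loci no region of the 0.48-step set was that high.

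As background, the eye field is the patch of the anterior neural plate that gives rise to both eyes, and Six3 is one of the homeobox factors that mark it. Rax and Lhx2 act there and in the optic vesicle. Vax1 and Vax2 specify the optic stalk and the ventral retina, and Mitf directs the retinal pigment epithelium. Otx2 is required for the fore- and midbrain, Hesx1 is a homeobox repressor of the anterior forebrain and pituitary, and Emx2 patterns the cerebral cortex. Six3 is known to repress posterior signals in the anterior neural plate.

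Neither the number nor the height of regions set these 8 genes, as a group, above other genes. Region density, the number of regions per Mb within 50 kb, was above the median of genes of similar length for 3 of 8 (Rax, Vax2 and Mitf). The median percentile over the 8 was 41.8, and the percentiles ran from 12.7 at Otx2 to 74.7 at Vax2. The densities had a median of 652 regions per Mb, against 665 over all protein-coding genes. Regions of both sets together covered a median of 25.4% of the sequence at these loci and 25.1% around all protein-coding genes. The tallest region within 50 kb was above the median of genes of similar length at 1 of 8, Otx2. It equalled that median at Lhx2 and Vax2 (percentile 63.4 each) and at Rax, Hesx1 and Emx2 (percentiles 31.9 to 32.1). At Vax1 and Mitf it was lower. By summed signal per Mb, 4 of 8 lay above the median of genes of similar length. The spread among the 8 genes was wide, and the sections below go through them by role.

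**Figure D1:**
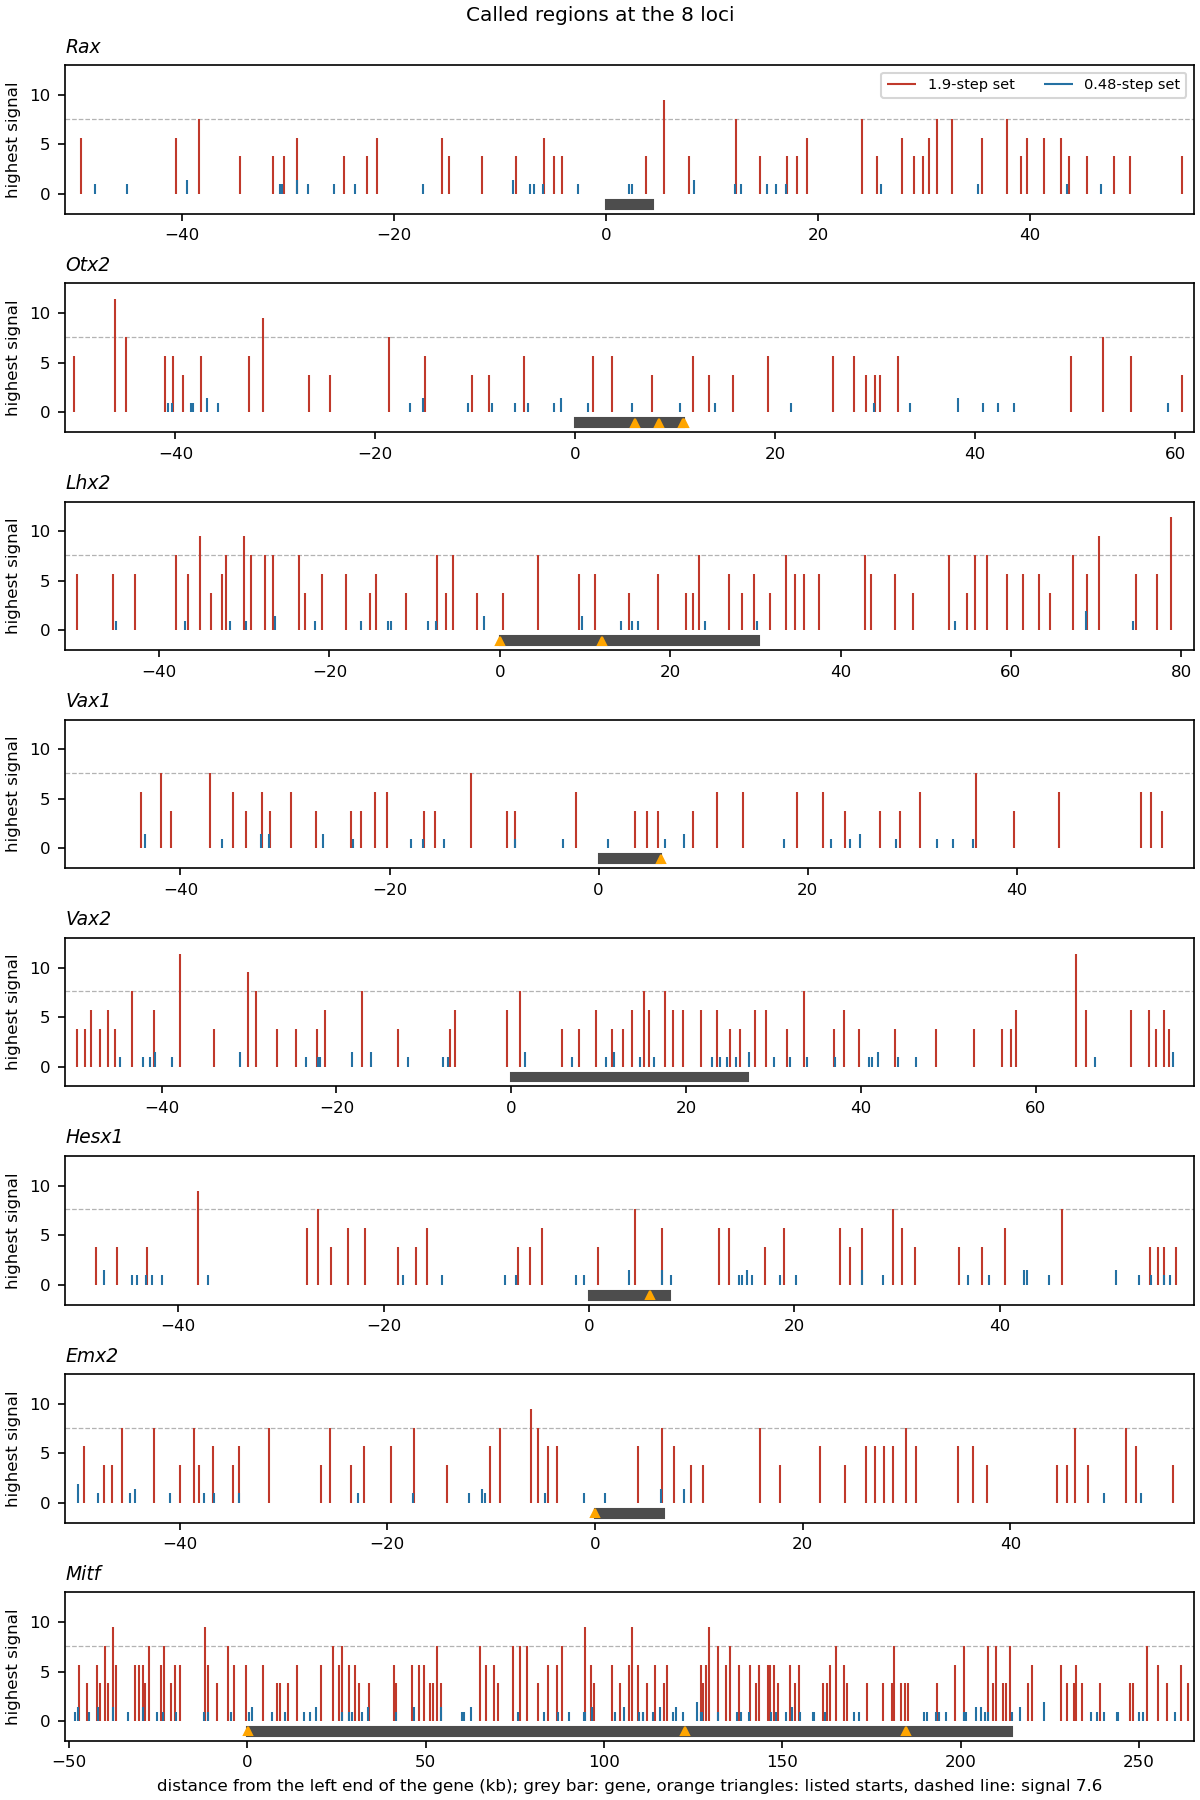
Called regions within 50 kb of each of the 8 genes. Each line is 1 region, placed by the distance of its midpoint from the left end of the gene (kb, in genome order), and its length is the highest signal as deposited; red is the 1.9-step set and blue the 0.48-step set. Lhx2 had 20 regions at or above the dashed line at 7.6, Emx2 14 and Vax1 4.

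Of the 714 regions, 441 belonged to the 1.9-step set and 273 to the 0.48-step set. The 1.9-step share was 61.8%, against 59.9% over chromosomes 1 to 19 and X. The 1.9-step regions at these genes were 195 to 1719 bp wide with a median of 450 bp, against 455 bp in the whole set. Their heights were 3.8 in 178, 5.7 in 172, 7.6 in 74, 9.5 in 13 and 11.4 in 4. Regions of 5 or more steps made up 3.85% of the 1.9-step regions here and 6.29% of that set over the genome. None of the very high signals elsewhere in the table, which reach 205.2 in the 1.9-step set, lay at these loci. The 0.48-step regions had a median width of 200 bp, and 213 of 273 were 2 steps high, at 0.96. The highest 0.48-step signal was 1.92, found in 4 regions: 2 at Mitf, 1 at Lhx2 and 1 at Emx2.

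Rax and Lhx2, the members that act in the eye field itself, differed in where their tall regions lay. Rax (chromosome 18, 65934639 to 65939089, mm10) had 71 regions, of which 44 were 1.9-step and 27 were 0.48-step. The gene itself held 3 of them: a 1.9-step region of height 3.8 and 2 regions of height 0.96. The tallest region of the locus, 65939506 to 65940723, began 417 bp beyond the right end of the gene. It was 1218 bp wide, with a height of 9.5 and a summed signal of 5306.7. In all, Rax had 7 tall regions, of which 6 lay to the right of the gene and 1 to the left, and 3 of those to the right overlapped the neighbouring gene Cplx4. Its density of tall regions, 67.0 per Mb, stood at percentile 28.4, and at 51.5 with a flank of 10 kb and 51.1 with one of 100 kb.

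Lhx2 (chromosome 2, 38339271 to 38369737) had the most tall regions among members other than the much longer Mitf. Its locus held 80 regions, with 59 in the 1.9-step set and 21 in the other. The 20 tall regions gave 153 per Mb, percentile 91.9, against a median of 95.8 per Mb in genes of similar length. The high rank rested on the flanks: with 10 kb on either side Lhx2 had 99.1 tall regions per Mb (percentile 51.9), and in the gene body 65.6 per Mb (percentile 31.5). With 100 kb it had 139 per Mb (percentile 90.4). Of the 20, 10 lay upstream of the gene, 2 inside it and 8 downstream. Upstream, 8 of the 10 lay together, between 23.2 and 37.8 kb from the start, a grouping picked out after the values were seen. Of its 59 regions of the 1.9-step set 15 were 2 steps high, whereas at Rax 24 of 44 were. The 0.48-step set showed the opposite at Lhx2, with 161 regions per Mb at percentile 4.92, which was percentile 14.4 with a flank of 10 kb and 55.8 with one of 100 kb. The total density, 613 regions per Mb, was thus at percentile 23.6 although tall regions were dense. The tallest region, 38417467 to 38418611, had a height of 11.4 and lay 66.2 kb from the nearest listed start, on the downstream side.

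Vax1 and Vax2 encode close homeodomain relatives and had 4 and 10 tall regions. The 10 at Vax2 gave 78.7 per Mb, percentile 30.3, against a median of 95.8 per Mb in genes of similar length. Vax1 (chromosome 19, 59164480 to 59170397) had 60 regions, and its 4 tall regions all had a height of exactly 7.6. They lay 17.9, 30.1, 42.5 and 47.5 kb from the start, and none lay in the gene. The density of tall regions was 37.8 per Mb, percentile 9.59, the lowest of the 8. Otx2 (45.1 per Mb, percentile 9.73) and Hesx1 (46.3 per Mb, percentile 12.6) were close to it. Vax1 was also the one member with no region of 9.5 or more within 50 kb. Such a region was found near 90.0% of all protein-coding genes, so the 7 of 8 members that had one stood close to the background. Regions of 11.4 were found at Otx2, Lhx2 and Vax2, 3 of 8, against 51.6% of all genes with a region at least that high.

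Vax2 (chromosome 6, 83711239 to 83738313) had 93 regions, and the gene body was dense in them. Inside the gene lay 26 regions (16 were 1.9-step and 10 were 0.48-step), or 960 per Mb, percentile 96.4. The tallest regions in the body reached 7.6, percentile 26.4, against a median tallest region of 9.5 inside genes of similar length. There were 3 of them, which is also the median number of tall regions inside those genes. Summed signal per Mb in the body stood at percentile 88.4. The tallest regions of the locus, with 11.4 each, lay in other genes. The one at 83672829 to 83673802 overlapped Cd207, and the one at 83775521 to 83776218 overlapped Tex261. Within 1 kb inside the left end of Vax2 began a wide region, 83711651 to 83712785, with a height of 7.6 over 1135 bp. Vax2os, a noncoding gene, overlaps this end of Vax2.

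Mitf (chromosome 6, 97807002 to 98021360) is by far the longest of the 8 genes and held 149 regions in its body and 211 in all. Tall regions numbered 26, of which 19 lay in the gene, 6 upstream and 1 downstream. Per Mb this was 82.7, percentile 40.1, close to the median of 89.7. The tallest reached 9.5, in 5 regions, which put Mitf at percentile 11.6 for height among the class of longest genes, which span 109312 to 2390387 bp. In the gene body the 0.48-step set was dense (percentile 88.5) and the 1.9-step set at the middle of the range (percentile 50.6). Of the 26 tall regions at Mitf, 8 overlapped a 0.48-step region, against 15 of 91 over the 8 loci together, Mitf included. The share of all tall regions in the genome that did so was not counted.

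Otx2 and Hesx1, on chromosome 14, had few regions of the 1.9-step set within 50 kb. Otx2 (48656781 to 48667644) had 59 regions, or 532 per Mb, the lowest density of the 8. Its 33 regions of the 1.9-step set put it at percentile 12.3 for that set. Inside the gene lay 6 regions, with heights of 5.7, 5.7 and 3.8 in the 1.9-step set and 0.96 in each of 3 regions of the other. Its 5 tall regions lay away from the gene, 4 of them downstream. The nearest was 24.4 kb from a start, farther than for 95.5% of genes. The tallest was narrow, 245 bp at 48610586 to 48610830, with a height of 11.4, a summed signal of 1900 and a mean height of 7.76.

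Hesx1 (26994419 to 27002329) had 36 regions in the 1.9-step set (percentile 17.9) and 34 in the other (percentile 87.8). At no other member were the sets so near to equal in number. The percentile of 1.9-step density at Hesx1 was 40.6 in the gene body. It was 22.7 with a flank of 10 kb and 26.1 with one of 100 kb. Of its 5 tall regions 1 lay in the gene, at 26998558 to 26999262, 1.1 kb upstream of the listed start. It was 705 bp wide, with a height of 7.6 and a summed signal of 2703.7. A region of height 5.7 at 27001362 to 27001651, also inside the gene, fully contained a 0.48-step region of 233 bp. The longest stretch without any region at these 8 loci, 9.27 kb, also lay here, outside Hesx1.

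Emx2 (chromosome 19, 59458690 to 59465357) lies 288 kb from its neighbour Vax1. Unlike Vax1, it was dense in tall regions within 50 kb, as Lhx2 was. The Emx2 locus held 70 regions: 50 were 1.9-step (percentile 78.4) and 20 were 0.48-step (percentile 13.5). There were 14 tall regions, or 131 per Mb at percentile 80.4, where Vax1 had 4 among genes of the same length class. In regions of any height with a flank of 100 kb, Emx2 (126) was nearer to Vax1 (116) than to Lhx2 (162). The percentile of tall regions at Emx2 was 87.3 with a flank of 10 kb and 69.0 with one of 100 kb, whereas that of its 1.9-step set was 61.2 and 45.1. Of the 14, 9 lay upstream, 1 in the gene and 4 downstream, and 6 overlapped Emx2os, the antisense RNA gene. The tallest, 59452103 to 59453047, ended 5643 bp before the start and had a height of 9.5 and a summed signal of 5643.0. Another tall region of 195 bp followed it after a short gap. Summed 1.9-step signal in the 500 kb bin that holds both Vax1 and Emx2 was 1.04 relative to the median bin of the autosomes, and the bins of the 8 genes lay between 0.937 and 1.24.

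**Figure D2:**
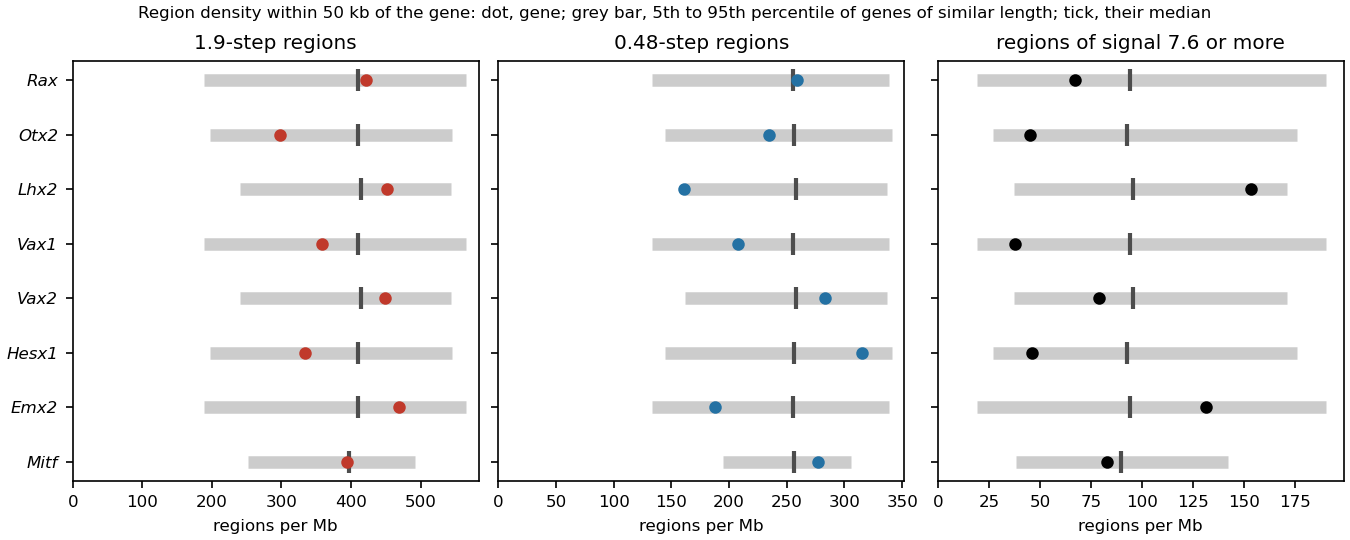
Regions per Mb within 50 kb of each gene, for the 1.9-step set, the 0.48-step set and regions of signal 7.6 or more. Dots are the 8 genes, grey bars the 5th to 95th percentile of the 2163 genes of similar length and ticks their median. For tall regions Lhx2 (153 per Mb) and Emx2 (131 per Mb) lie above the tick and the other 6 below it.

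**Figure D3:**
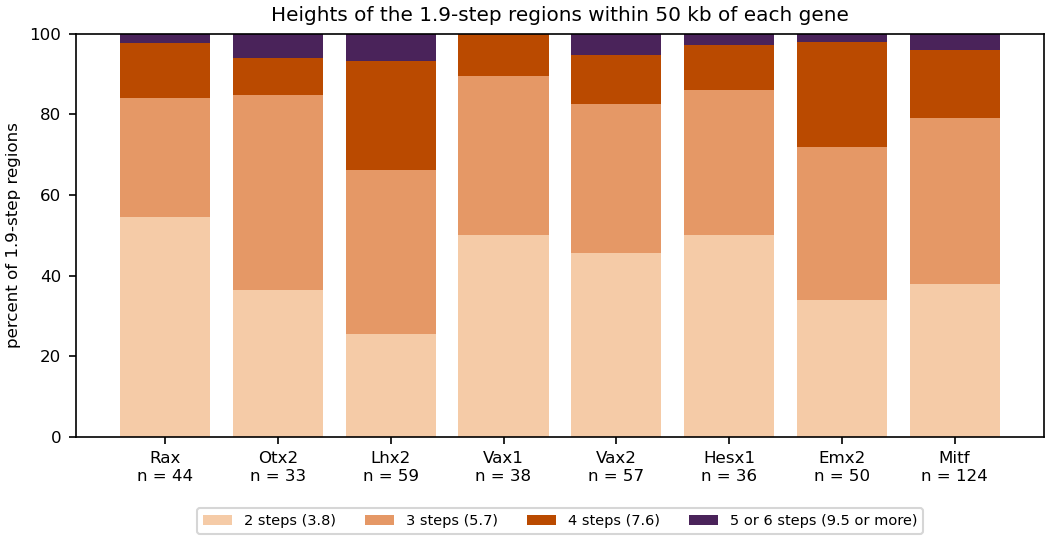
Heights of the 1.9-step regions within 50 kb of each gene, as percent of that gene's 1.9-step regions. Lhx2 had 20 of 59 regions and Emx2 14 of 50 at 4 steps or more, and Vax1 4 of 38.

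Distances from gene starts to regions were set against those of all protein-coding genes. Starts came from a RefSeq promoter table (GRCm38.p6, the coordinates of mm10), which lists 12 starts for 6 of the members. For Rax and Vax2 both gene ends were used. Where a gene had several starts the smallest distance counted, and ranks were not matched for the number of starts. A 1.9-step region lay over a start at Vax1, 1 of 8 members, against 26.6% of all protein-coding genes. A 0.48-step region did so at 0 of 8, against 7.84%. A tall region came within 1 kb of a start or end at Rax (417 bp) and Vax2 (412 bp), 2 of 8 against 28.1%. Both are members for which gene ends stood in for starts. At the 6 members with listed starts the nearest tall region lay 1.1 kb (Hesx1) to 24.4 kb (Otx2) away. The share of 28.1% also used gene ends for genes without a listed start. Within 5 kb the members were Rax, Vax2, Hesx1, Lhx2 and Mitf, 5 of 8 against 66.6%. A tall region overlapped the gene body at 5 of 8 (Emx2, Hesx1, Lhx2, Mitf and Vax2), against 69.2%. None of these counts of members lay far from the background share. The median distance to the nearest 1.9-step region was 0.21 kb for the members and 0.316 kb for all genes. For the 0.48-step set it was 0.60 kb against 1.03 kb, and for tall regions 3.76 kb against 2.75 kb.

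**Figure D4:**
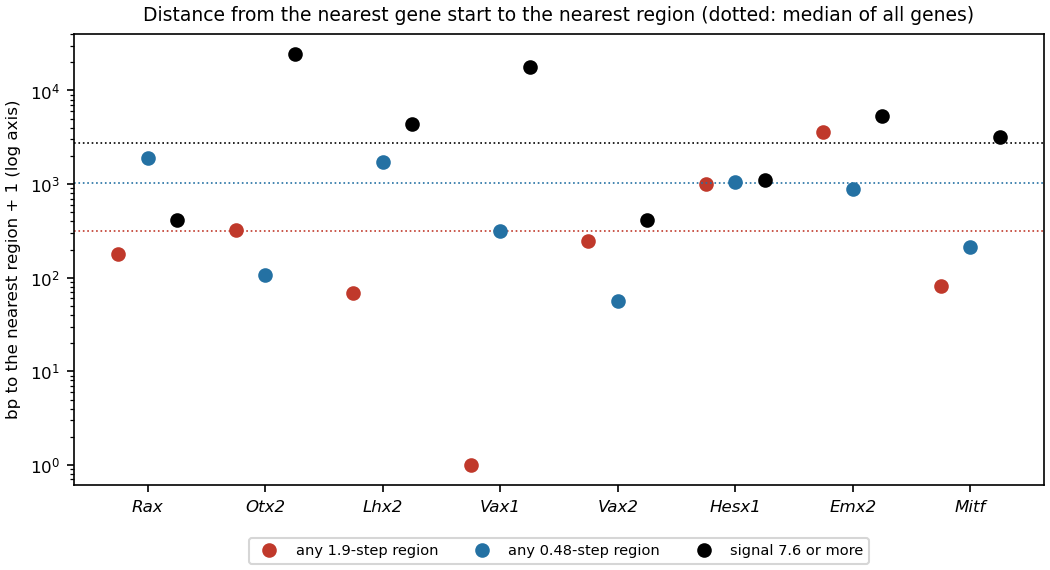
Distance in bp, plus 1, on a log axis, from the nearest start (or gene end, for Rax and Vax2) to the nearest region, for each gene. Dotted lines are the medians over all protein-coding genes: 0.316 kb for the 1.9-step set, 1.03 kb for the 0.48-step set and 2.75 kb for regions of 7.6 or more. Otx2 (24.4 kb) and Vax1 (17.9 kb) lie farthest from a region of 7.6 or more.

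At Vax1 the region over the start, 59169874 to 59170502, was 629 bp wide with a height of 3.8, or 2 steps, and a summed signal of 1759.4. At Emx2, by contrast, the nearest 1.9-step region was 3.56 kb from the start, farther than at 95.4% of genes, and 0.48-step regions lay 879 bp before and 888 bp after it. Around the 4 Otx2 starts, the nearest 0.48-step regions were 107 and 152 bp from a start, with a height of 0.96 each, and the nearest 1.9-step region was 320 bp away, with a height of 3.8. At Mitf the first start had a region of height 5.7 ending 173 bp before it. The rightmost start of Mitf had regions of height 3.8 on either side, 117 bp before and 80 bp after. At Lhx2 a region of height 3.8 began 68 bp after the first start.

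The bases before the outermost start of 4 members are shown because they hold the contrast between starts with and without a region. Bases inside the gene are left out, the 5′ end is on the left, and sequences are RefSeq's on GRCm38.p6. Capitals mark ATTA, the core that many homeodomains bind, read on either strand. The last 105 of the bases for Vax1 and the first 78 for Mitf lay under a 1.9-step region. None of those for Otx2 or Emx2 lay under a region of either set.
Vax1, chr19:59170398-59170647, strand minus: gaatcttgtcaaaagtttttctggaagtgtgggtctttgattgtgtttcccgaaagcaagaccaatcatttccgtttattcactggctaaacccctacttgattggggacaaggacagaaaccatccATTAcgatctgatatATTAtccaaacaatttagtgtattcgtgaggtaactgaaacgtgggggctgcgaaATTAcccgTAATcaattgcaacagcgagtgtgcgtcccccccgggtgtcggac
Mitf, chr6:97806808-97807001, strand plus: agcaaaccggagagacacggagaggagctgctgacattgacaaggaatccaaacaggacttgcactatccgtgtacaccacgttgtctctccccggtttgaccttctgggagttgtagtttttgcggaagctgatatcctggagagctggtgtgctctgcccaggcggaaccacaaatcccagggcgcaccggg
Otx2, chr14:48667645-48667894, strand minus: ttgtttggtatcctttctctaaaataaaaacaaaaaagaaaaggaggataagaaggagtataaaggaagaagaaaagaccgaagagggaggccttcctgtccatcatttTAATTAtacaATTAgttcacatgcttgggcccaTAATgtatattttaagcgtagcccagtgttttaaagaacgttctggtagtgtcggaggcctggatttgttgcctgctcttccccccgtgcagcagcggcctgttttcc
Emx2, chr19:59458440-59458689, strand plus: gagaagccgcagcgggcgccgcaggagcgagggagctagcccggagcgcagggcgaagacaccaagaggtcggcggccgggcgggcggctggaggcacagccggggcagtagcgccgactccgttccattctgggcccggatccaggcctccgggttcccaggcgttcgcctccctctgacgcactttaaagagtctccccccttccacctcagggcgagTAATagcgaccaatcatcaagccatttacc

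Matches were found both with and without a region. Vax1 had 4 ATTA matches in the bases shown, 2 of them wholly under the region. Otx2 also had 4, a pair of which overlap each other, with no region there. Mitf had a region and 0 matches, and Emx2 had 1 match and no region. In full windows of 300 bases, from 250 before to 50 after the start, GC content at the 12 starts ran from 33.7% at Hesx1 to 74.7% at Lhx2. ATTA matches on both strands, overlaps included, ran from 0 at Lhx2 to 10 at Hesx1 and at the Otx2 start at 48665109. ATTA was found in 58.0% of the 32619 windows of all genes in the table. The letters TGATAC, a core known for the family of Six3, was in 0 of the 12 windows on either strand and in 5.42% of all windows. A match is a stretch of letters and not a measured site.

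A 1.9-step region overlapped 3 of the 12 windows (Vax1 and the outer starts of Mitf), against 33.8% of all windows, and a 0.48-step region overlapped 0, against 12.6%. Over all windows the 1.9-step share was 33.4% with ATTA and 34.2% without. It was 31.1% with TGATAC and 33.9% without. Over 10 classes of GC content the 1.9-step share was lowest, 27.6%, in the class with least GC and highest, 37.5%, in class 7. These shares are over windows of one table, which are not replicates.

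The step sets met at these loci about as often as elsewhere in the table. Of 273 regions of the 0.48-step set, 72 shared at least 1 bp with a 1.9-step region. This was 26.4% (95% Wilson interval 21.5% to 31.9%, counting error only), against 27.7% over chromosomes 1 to 19 and X. By gene, the overlapping regions were 25 of 87 at Mitf, 10 of 36 at Vax2, 8 of 27 at Rax, 7 of 22 at Vax1, 6 of 34 at Hesx1, 6 of 21 at Lhx2, 6 of 20 at Emx2 and 4 of 26 at Otx2.

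Of 20 other genes of eye and forebrain patterning, 6 had a region density above the median of genes of similar length, and the median percentile was 39.8. Within 1 kb of a start, 6 of 20 had a tall region, against 28.1% of all genes. Tbx5, a T-box factor of the dorsal retina, had one of 9.5. Crx, a photoreceptor homeobox gene, was among 5 genes at 7.6. No region at all lay within 1 kb of a start at 4 genes, among them Dmrta2, Nkx2-1 and the eye field gene Pax6. The share of all genes without such a region was not counted. The nearest tall region lay 14.1 kb away at Dmrta2 and 9.11 kb away at Nkx2-1. At Pax6 it lay 1015 bp away, just outside the window of 1 kb. At Six3 itself 68 regions lay within 50 kb, with 12 tall ones, or 107 per Mb at percentile 64.6. The percentile of tall regions at Six3 was 91.8 in the gene body, which held 3. It was 81.5 with a flank of 10 kb and 30.5 with one of 100 kb. For the density of all regions, Six3 stood at percentile 27.2 in the gene body and 23.2 within 50 kb. A region of height 7.6 at 85620070 to 85620541 ended 293 bp before the listed Six3 start. The cells carried added Six3, and its part in these signals was not tested.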

How the data were processed

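CUT&RUN regions of mouse neural stem cells (mm10) were analysed. The tools named by the labels' processing notes are SEACR, Bowtie2 and deepTools, without versions, parameters or filters. As deposited, there is 1 table by the authors whose column 5 is the highest coverage signal of a region and column 4 the signal summed over its bases. The layout is that of SEACR, and the name of the table mentions spike-in scaling and BEDOPS.

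A region joined a step set when its height divided by 1.9 or 0.48, but not by both, was within 0.001 of a whole number. Regions counted where they overlapped an interval by 1 bp. Genes came from the RefSeq table of GRCm38.p6; 79.9% of protein-coding genes had a listed start, and the others were given both gene ends. No test was made, and FLAG was not compared with IgG, since no column belongs to a library. The 8 genes, the 20 related genes, motifs and thresholds were chosen with earlier results of these data known. Of the related genes, the 3 with the tallest region within 1 kb of a start and 3 with none were named, ties by alphabet; 1 of these is not reported here. Counting code was checked on simulated data. Python 3.11.15, numpy 2.4.6, pandas 2.3.3, scipy 1.17.1 and matplotlib 3.10.9 were used.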

Additional observations from a re-analysis of the deposited data

How the results depend on the processing

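Of 24 alternative values, 14 stayed within 1.5 times the count or within the interval of the share, and 10 did not. The number of regions at the 8 loci, 714, was 317 with a flank of 10 kb and 1255 with one of 100 kb. With a flank of 100 kb, 5 rather than 3 members lay above the median density of genes of similar length. Members with a tall region near a start, or near a gene end for Rax and Vax2, numbered 2 within 1 kb and 5 within 5 kb. Within 1 kb they were 1 for a height of 9.5 or more, and 4 when either end of every gene was used. The share of all protein-coding genes was 28.1% within 1 kb and 66.6% within 5 kb. It was not counted for the other settings, so those counts have no background. The share of 0.48-step regions overlapping a 1.9-step region, 26.4%, was 19.8% when an overlap had to span 0.5 of the shorter region. The 1.9-step share was 58.0% with a flank of 10 kb. The tallest region was above the median of genes of similar length at 1 member, at 2 with a flank of 10 kb, and by summed signal per Mb at 4. Wider intervals add regions and a stricter overlap removes them by construction. No paired analysis was possible because no column belongs to a library. Heights move in steps of 1.9 or of 0.48, so 1 step is the smallest difference within a set.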
